A study of Homo sapiens with 12 samples.

Results

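The genes described here are the TCF/LEF transcription factors (TCF7, TCF7L1, TCF7L2 and LEF1), the Dishevelled scaffolds (DVL1, DVL2 and DVL3), a Dishevelled antagonist (NKD1) and the Wnt secretion factors PORCN and WLS. They were chosen by symbol from a table of 15798 genes. Of the 10 symbols, 9 had a row, and LEF1 was not analysed here. Counts came from HCT116, an established human colorectal carcinoma cell line. Dishes received either DMSO, the solvent, or 100 nM trametinib, an inhibitor of MEK1/2, the kinases that activate ERK, for 24 h. All dishes were treated briefly with cycloheximide, which halts ribosomes, before lysis. From each group, input mRNA (randomly fragmented cytoplasmic RNA) and ribosome footprints (the mRNA pieces that a ribosome protects from RNase I) were sequenced. This gave 12 libraries in 4 groups of 3 biological replicates. The comparison asks which mRNAs changed in abundance, in total ribosome occupancy and in ribosome density, the footprints relative to the input mRNA.

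In canonical Wnt signaling, PORCN attaches a lipid to Wnt proteins in the endoplasmic reticulum and WLS carries them to the cell surface. Wnt-bound receptors recruit Dishevelled, which inactivates the destruction complex, so that beta-catenin accumulates and binds TCF/LEF factors on DNA. NKD1 binds Dishevelled and dampens this signal. Without beta-catenin the TCF/LEF factors act as repressors together with TLE proteins. In the colon, TCF7L2 (also called TCF4) is the factor best known for maintaining stem cells of the crypt.

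The sequence around the start codon is where a ribosome begins to read these mRNAs, and is shown because the genes differed widely in ribosome density. Each stretch runs from 9 bases before to 12 bases from the first base of the start codon, 5′ to 3′, on the canonical transcript of Gencode V44 (GRCh38), with the start codon in capitals.
TCF7: gagcgcaccATGccgcagctg
TCF7L1: ggccccaccATGccccagctc
TCF7L2: gaaaaaaaaATGccgcagctg
DVL1: cgccgcgccATGgcggagacc
DVL2: ggcgagaccATGgcgggtagc
DVL3: gccagagccATGggcgagacc
NKD1: agccccagcATGgggaaactt
PORCN: gggtctgcaATGgccaccttt
WLS: ggcgcaaaaATGgctggggca

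The bases that matter most for start codon recognition are a purine 3 bases before the start codon and a G directly after it. The purine was present in 9 of 9 genes, against 87.52% of 10491 tested genes with an annotated context. Both features were present in 6 of 9, against 47.69%. The 3 TCF factors lack the G and share a C in its place, while the Dishevelled genes, NKD1, PORCN and WLS have the G. TCF7L2 has a run of A directly before the start codon, and WLS has a shorter one. The TCF/LEF binding motifs CTTTGAT and CTTTGAA were searched on both strands of the promoter windows of RefSeq (GRCh38), which are 300 bases long and lie mostly upstream of a transcription start. Neither was found in the 14 windows of the genes described here other than NKD1, which had no entry; LEF1 is included. Of all 35116 windows, 2.617% held the former and 4.428% the latter.

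Counts inside reading frames summed to between 2276693 and 2845568 per input library and to between 10127477 and 19181588 per footprint library. Input was the less precise assay, with a median standard error (SE) of a log2 change of 0.22 against 0.16 in footprints and 0.29 in ribosome density. The ERK output genes, a check of the treatment labels, were lower in 10 of 10 cases in trametinib input, against 16.8% of all genes. Their median log2 change was -4.76, and 7 of the 10 reached the filter of 10 counts in 3 libraries only with the DMSO libraries. Markers of other cell types summed to between 38.6 and 92.55 normalized counts per library, and PTPRC, CD3E, PECAM1, COL1A2 and DCN had at most 3 counts in every library. COL1A1, at 66.9 ± 22.5 normalized counts in DMSO input (SD, n = 3), made up most of this sum, and SYP reached 18 counts in footprints. The colorectal epithelial markers summed to between 29270 and 88800, although CDX1 and VIL1 were at most at 3 counts. DMSO replicate 1 stood apart. Over 7669 genes, its input and footprint deviations from the DMSO means correlated at r = 0.816, a description across genes, against at most 0.343 for the other dishes. Calls of the 9 genes that change without it are given with and without it.

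Levels below are normalized counts (raw counts over the size factor of their library), and changes are log2 of trametinib over DMSO. Counts are relative to the whole library, so a change of translation shared by all mRNAs cannot be seen. Between genes, levels were compared as CPM/kb, the counts scaled to the library total (CPM) and divided by the kilobases of coding length. In DMSO input DVL1 was first at 54.0 ± 5.10 CPM/kb (SD, n = 3), above DVL2 at 34.1 ± 5.58, WLS at 31.6 ± 1.77, TCF7L2 at 31.0 ± 11.2 and DVL3 at 21.7 ± 3.08. The libraries of DVL2, WLS, TCF7L2 and DVL3 overlapped between neighbours in this order. TCF7, PORCN and NKD1 followed at 6.58 ± 3.96, 5.65 ± 1.30 and 4.26 ± 0.450, also with overlapping neighbours, and TCF7L1 was lowest at 2.47 ± 0.408.

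The order was different in footprints. TCF7L2 at 60.2 ± 10.2 and WLS at 47.5 ± 3.76 CPM/kb came first in DMSO and overlapped each other. DVL2 at 20.8 ± 3.67, DVL3 at 12.7 ± 0.442 and DVL1 at 8.64 ± 0.534 followed without overlap. DVL1 was thus first of the 9 genes in input and behind TCF7L2, WLS, DVL2 and DVL3 in footprints. TCF7 at 4.23 ± 1.79 and PORCN at 4.06 ± 0.484 overlapped each other, above TCF7L1 at 2.61 ± 0.237 and NKD1 at 1.52 ± 0.746.

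Ribosome density is given for each dish as footprints over input of the libraries with the same treatment and number, relative to the median of 10663 genes tested. In DMSO, TCF7L2 was at 2.21 times the median gene (geometric mean of 3 dishes), higher than 90.34% of genes, and WLS, a membrane protein that ferries Wnt, was at 1.64 times. TCF7L1 was at 1.16, PORCN at 0.799, TCF7 at 0.744, DVL2 at 0.665 and DVL3 at 0.645 times the median. NKD1 was at 0.361 times with a wide spread, since its DMSO dishes were at 0.201, 0.484 and 0.484. DVL1 was at 0.176 times, with dishes at 0.164, 0.196 and 0.169, and only 1.744% of genes were lower. No other of the 9 genes overlapped the DVL1 dishes in DMSO. In trametinib the DVL1 dishes were at 0.172, 0.180 and 0.218, again below the dishes of the other 8 genes.

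**Figure D1:**
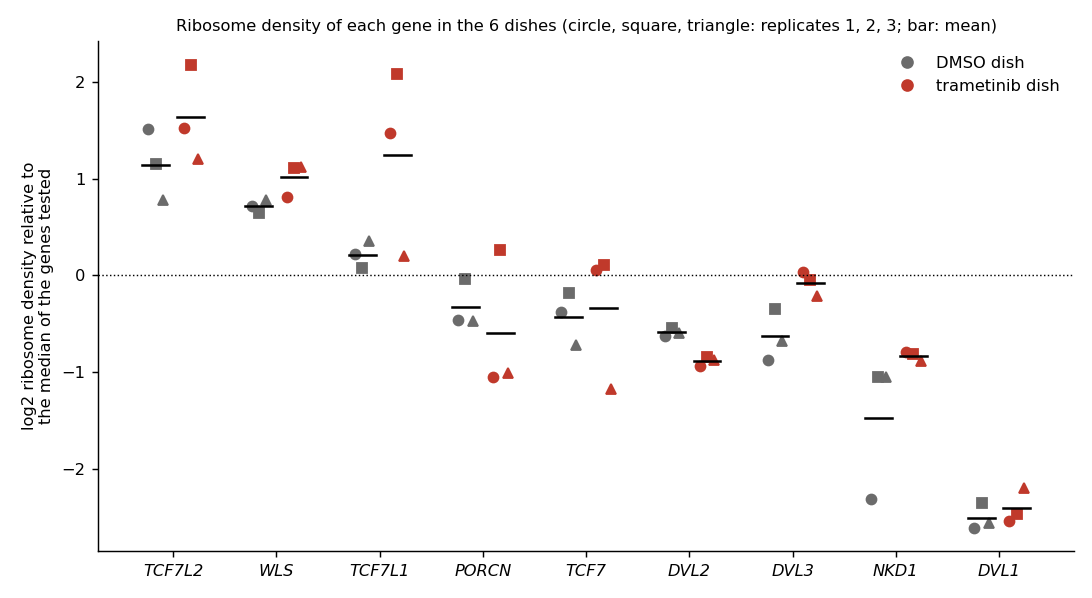
Ribosome density of the 9 genes in each dish, on a log2 scale where 0 is the median of the genes tested (y axis), with 3 DMSO dishes (grey) and 3 trametinib dishes (red) per gene and bars for the means. TCF7L2, WLS and TCF7L1 lie above 0 in all 6 dishes and DVL1 lies lowest in both treatments, at 0.176 and 0.189 times the median gene.

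The coding sequence of DVL1 has a GC content of 65.95%, above that of 94.3% of 10587 tested genes, whose median is 52.1%. TCF7, TCF7L1 and NKD1 are at 64.5%, 64.17% and 63.62%, DVL3, DVL2 and PORCN at 61.45%, 61.14% and 58.79%, and TCF7L2 and WLS at 56.06% and 49.23%. Across genes, GC content and DMSO ribosome density had a Pearson's r of -0.266 and a Spearman's rho of -0.273, as a description over genes that share the same libraries. The part of base composition in the low DVL1 value was not tested. Reads that belong to several symbols were not counted. Identical stretches of 30 bases were searched among the protein-coding sequences of Gencode V44. DVL1 and DVL3 share 7 stretches with each other (0.336% and 0.326% of their stretches), and the other 7 genes share none with the coding sequence of another symbol. Shorter or inexact matches, noncoding transcripts and untranslated regions were not searched.

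TCF7L2, which had the highest level per length of the TCF factors with a row, lies on chromosome 10 (112950247 to 113167678, plus strand, GRCh38). Its DMSO footprint libraries were at 699, 963 and 869 normalized counts and its trametinib libraries at 1807, 1783 and 1465. All trametinib libraries were above all DMSO libraries. The footprint change was 0.99 (SE 0.15), a 1.99-fold increase with a 95% interval of 1.58 to 2.51 (edgeR quasi-likelihood test, adjusted p = 0.000674). The call was kept without any of the 6 libraries in turn, with adjusted p-values up to 0.00573.

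In input, TCF7L2 was at 239, 417 and 492 normalized counts in DMSO and at 616, 386 and 630 in trametinib. These groups overlapped, with trametinib replicate 2 below DMSO replicates 2 and 3. The input change of 0.52 (SE 0.26, 95% interval -0.04 to 1.07) did not pass the test (edgeR adjusted p = 0.141). It was 0.26 (adjusted p = 0.345) without DMSO replicate 1, the lowest DMSO library. It passed without DMSO replicate 3 (0.73, adjusted p = 0.0481) and with a replicate block (0.53, adjusted p = 0.0471), although the input numbers did not meet the rule for pairs.

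The ribosome density of TCF7L2 was 2.85, 2.22 and 1.71 times the median gene in the DMSO dishes and 2.88, 4.53 and 2.30 times in the trametinib dishes. The dishes overlapped. The density change of 0.49 (SE 0.35, 95% interval -0.20 to 1.18) did not pass (DESeq2 likelihood ratio test, adjusted p = 0.886). Its footprint increase was called, while neither the input nor the density change passed in the main fits.

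TCF7L1 (TCF3), a TCF factor known mostly as a repressor, lies on chromosome 2 (85133392 to 85310387, plus strand). Its footprints were at 28.4, 33.2 and 31.0 normalized counts in DMSO and at 55.3, 57.1 and 44.7 in trametinib, again without overlap. The change was 0.77 (SE 0.17), a 1.70-fold increase with a 95% interval of 1.30 to 2.23 (edgeR adjusted p = 0.00569). It held without each library in turn, with adjusted p-values up to 0.0327. Input of TCF7L1 rested on few reads, with raw counts of 11, 14 and 10 in DMSO and of 8, 5 and 15 in trametinib. The input change of -0.13 (SE 0.43, adjusted p = 0.847) had a wide interval, from -1.06 to 0.80. The density change of 0.91 (SE 0.48, 95% interval -0.03 to 1.85) did not pass (DESeq2 adjusted p = 0.659), with trametinib dishes at 2.77, 4.23 and 1.15 times the median gene against 1.16, 1.05 and 1.28 in DMSO.

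TCF7 (TCF1), the factor best known from T cells, lies on chromosome 5 (134114681 to 134151865, plus strand). Its DMSO input libraries were at 32.4, 51.9 and 103 normalized counts and its trametinib libraries at 43.3, 36.0 and 72.0. In footprints it was at 25.4, 47.6 and 64.1 in DMSO and 45.8, 39.4 and 31.9 in trametinib. DMSO replicate 1 was the lowest DMSO library in both assays, and the groups overlapped in both. Neither the input change of -0.29 (SE 0.41) nor the footprint change of -0.22 (SE 0.31) passed (edgeR adjusted p = 0.626 and 0.580). Without DMSO replicate 1 the TCF7 footprint change was -0.54 and passed as lower (edgeR adjusted p = 0.0300), whereas without DMSO replicate 3 it was 0.14 (adjusted p = 0.712). The density change of TCF7 was 0.08 (SE 0.59, DESeq2 adjusted p = 0.997).

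As a share of the summed per-length level of the 3 TCF factors with a row, TCF7L2 held 77.6% ± 2.46 (SD, n = 3) of DMSO input and 89.9% ± 1.80 of DMSO footprints. In trametinib these shares were 85.6% ± 3.40 and 93.7% ± 0.210. The trametinib footprint libraries, from 93.52% to 93.94%, were all above the DMSO footprint libraries, from 87.86% to 91.29%. In input the trametinib libraries, from 81.89% to 88.62%, were likewise all above the DMSO libraries, from 75.26% to 80.15%. The TCF7 share of footprints was 6.18% ± 2.08 in DMSO and 2.81% ± 0.234 in trametinib, and the TCF7L1 share was 3.94% ± 0.397 and 3.46% ± 0.0947. Shares are relative to the family sum, so higher TCF7L2 footprints by themselves lower the shares of the other factors. In the main fit TCF7 footprints did not pass the test, and TCF7L1 footprints were called higher. With 3 libraries against 3, an exact permutation test cannot give a p-value under 0.10, and none was run on these shares.

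**Figure D2:**
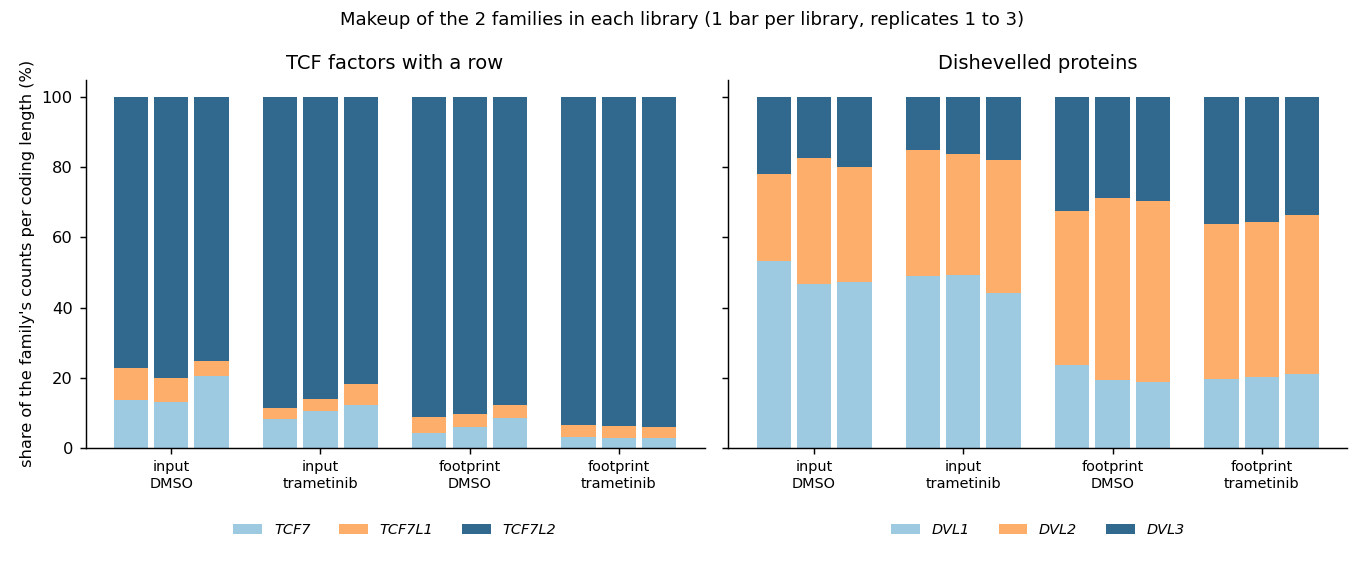
Share of each gene (y axis, percent) in the summed counts per coding length of the TCF factors (left) and of the Dishevelled proteins (right), with 1 bar per library in the order of replicates 1 to 3 within each group. TCF7L2 made up 77.6% of DMSO input and 93.7% of trametinib footprints on average, and DVL1 held 49.1% of DMSO input but 20.7% of DMSO footprints.

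Among the Dishevelled genes, which encode the scaffold between receptor and destruction complex, DVL3 (chromosome 3, 184155377 to 184173614, plus strand) was the one with a called change. Its footprints were at 179, 187 and 183 normalized counts in DMSO and at 231, 249 and 222 in trametinib. The groups did not overlap, and the spread within DMSO was small. The change was 0.35 (SE 0.11), a 1.27-fold increase with a 95% interval of 1.07 to 1.52 (edgeR adjusted p = 0.0276). The call was lost without DMSO replicate 2 (0.36, edgeR adjusted p = 0.0560), DMSO replicate 3 (0.35, adjusted p = 0.0561), trametinib replicate 1 (0.36, adjusted p = 0.0950) and trametinib replicate 2 (0.30, adjusted p = 0.123).

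Input of DVL3 was at 319, 229 and 283 normalized counts in DMSO and at 221, 252 and 255 in trametinib. The groups overlapped, and the change of -0.19 (SE 0.18) did not pass (edgeR adjusted p = 0.474). Ribosome density was 0.547, 0.785 and 0.626 times the median gene in DMSO and 1.02, 0.967 and 0.864 times in trametinib, so that all trametinib dishes were above the DMSO dishes. The density change of DVL3 was 0.55 (SE 0.21, 95% interval 0.14 to 0.96), with an unadjusted p of 0.00839 and an adjusted p of 0.282 (DESeq2 likelihood ratio test). It failed the correction in the main analysis. With library totals as scaling, which shifted the median of all genes by 0.18, it was 0.72 and passed (DESeq2 adjusted p = 0.0233).

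DVL2 (chromosome 17, 7225342 to 7234517, minus strand) was at 375, 484 and 478 normalized counts in DMSO input and at 546, 556 and 560.5 in trametinib input. The trametinib libraries were close together and all above DMSO. The change of 0.32 (SE 0.16, 95% interval -0.02 to 0.67) did not pass (edgeR adjusted p = 0.140). Footprints of DVL2 were at 248, 345 and 327 in the DMSO libraries and at 291, 316 and 309 in trametinib, with all trametinib libraries inside the DMSO range. The footprint change was -0.01 (SE 0.14, adjusted p = 0.951), and its sign turned with library totals, in a model of all 12 libraries and with a replicate block (0.17, 0.03 and 0.00). The density change was -0.32 (SE 0.22, 95% interval -0.75 to 0.11, DESeq2 adjusted p = 0.865), with dishes at 0.646, 0.686 and 0.663 times the median gene in DMSO and, without overlap, at 0.523, 0.558 and 0.545 times in trametinib.

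DVL1 (chromosome 1, 1335276 to 1349418, minus strand) was at 759, 598.5 and 649 normalized counts in DMSO input and at 700.3, 746 and 614 in trametinib input. Its footprints were at 127, 122 and 113 in the DMSO libraries and at 123, 137 and 135 in trametinib. The groups overlapped in both assays. The changes were 0.05 (SE 0.16, 95% interval -0.30 to 0.39) in input and 0.12 (SE 0.13, 95% interval -0.17 to 0.40) in footprints, with edgeR adjusted p-values of 0.855 and 0.464. The density change was 0.08 (SE 0.20, DESeq2 adjusted p = 0.997). As a share of the 3 Dishevelled genes per length, DVL1 held 49.1% ± 3.66 of DMSO input and 20.7% ± 2.70 of DMSO footprints, and 47.5% ± 2.84 and 20.3% ± 0.656 in trametinib. DVL2 held 49.1% ± 4.52 of DMSO footprints and 44.6% ± 0.709 of trametinib footprints, and the share of DVL3 was 30.3% ± 1.88 and 35.1% ± 1.34. The DVL3 share of trametinib footprints, from 33.57% to 36.05%, did not overlap its DMSO range of 28.84% to 32.42%.

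NKD1 (chromosome 16, 50548396 to 50649249, plus strand) was the least occupied of the 9 genes. It was at 32.4, 36.7 and 37.5 normalized counts in DMSO input and at 33.7, 30.9 and 30.9 in trametinib input. Its footprints were at 6.26, 18.2 and 18.4 in DMSO, where replicate 1 held 17 raw counts, and at 19.7, 17.7 and 16.7 in trametinib. The groups overlapped in both assays. The changes were -0.15 (SE 0.30) in input, 0.36 (SE 0.36) in footprints and 0.52 (SE 0.56) in density, with adjusted p-values of 0.748 and 0.434 (edgeR) and 0.991 (DESeq2). Without DMSO replicate 1 the footprint change of NKD1 was -0.03 (edgeR adjusted p = 0.928). Its density change ranged from 0.14, without DMSO footprint replicate 1, to 0.80, without DMSO footprint replicate 3.

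WLS (chromosome 1, 68098473 to 68233120, minus strand) was at 360.2, 313 and 309 normalized counts in DMSO input and at 351, 288 and 242 in trametinib input. Its footprints were at 608, 509 and 547 in the DMSO libraries and at 628, 634 and 531 in trametinib. The groups overlapped in both assays. The change was -0.15 (SE 0.18, 95% interval -0.54 to 0.24) in input and 0.10 (SE 0.12, 95% interval -0.17 to 0.37) in footprints, with edgeR adjusted p-values of 0.560 and 0.515. The density dishes of WLS, 1.65, 1.56 and 1.72 times the median gene in DMSO and 1.75, 2.16 and 2.17 in trametinib, did not overlap, but the change of 0.26 (SE 0.22) did not pass (DESeq2 adjusted p = 0.950).

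PORCN (chromosome X, 48508959 to 48520814, plus strand), the acyltransferase of Wnt proteins, was at 58.2, 34.6 and 46.8 normalized counts in DMSO input and at 74.6, 33.5 and 59.1 in trametinib input. Its footprints were at 43.1, 35.2 and 34.7 in the DMSO libraries and at 36.6, 41.1 and 29.5 in trametinib. Replicate 2 was the lowest input library of both treatments, and the groups overlapped in both assays. The changes were 0.27 (SE 0.34) in input, -0.08 (SE 0.19) in footprints, where library totals gave 0.10 and leaving out DMSO replicate 1 gave 0.03, and -0.34 (SE 0.42) in density. The adjusted p-values were 0.573 and 0.741 (edgeR) and 0.995 (DESeq2).

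**Figure D3:**
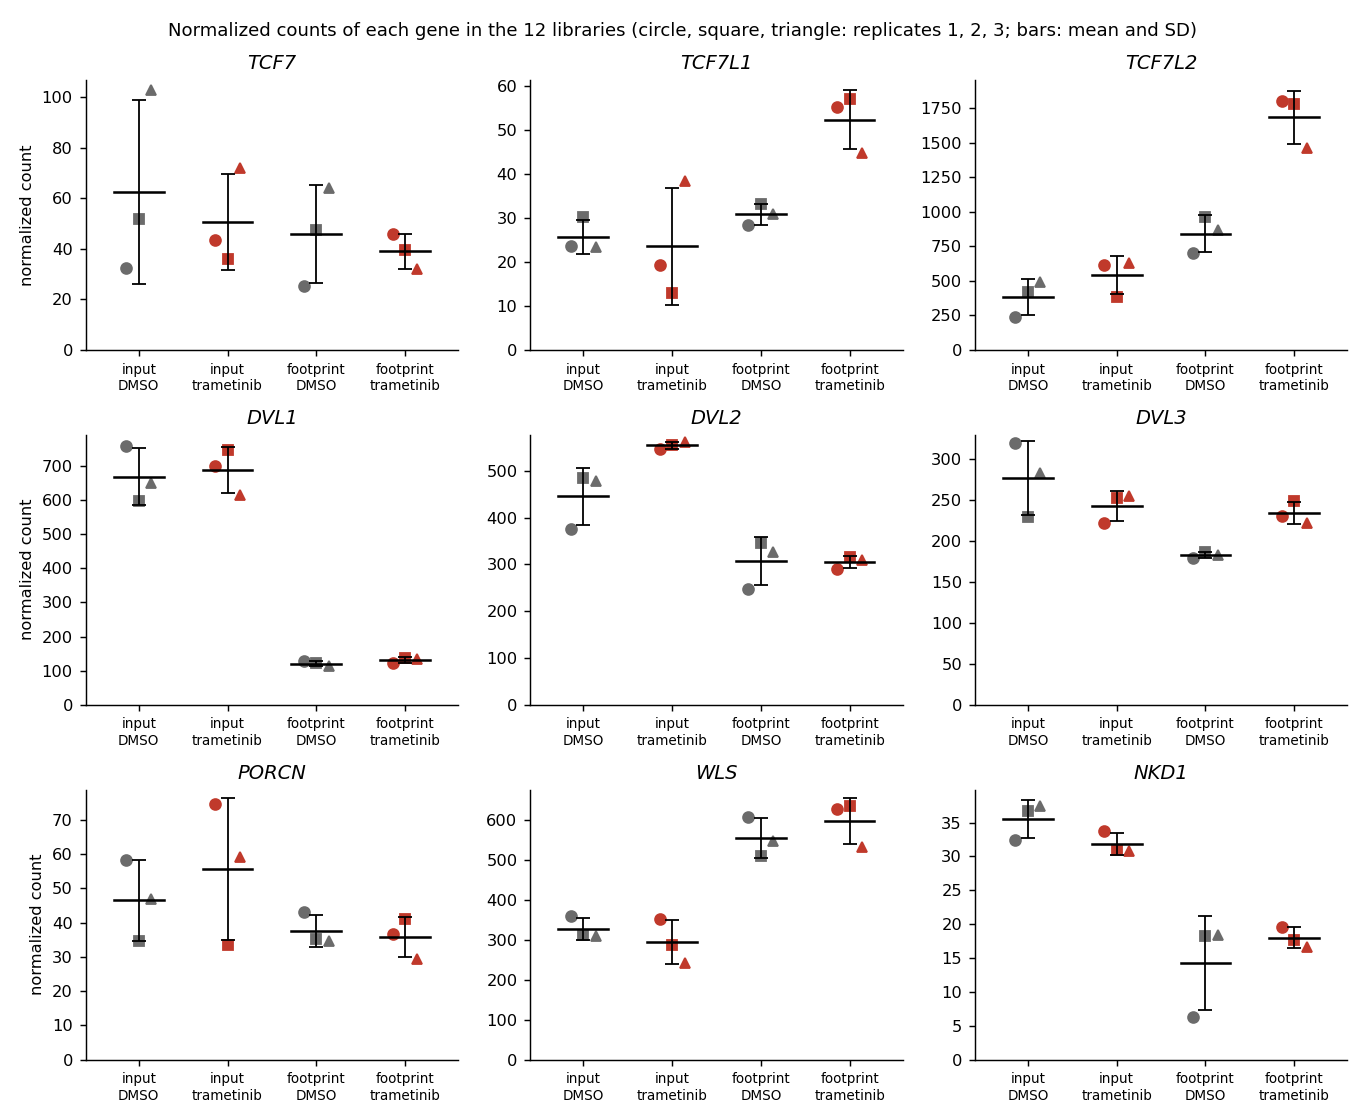
Normalized counts (y axis, from 0) of the 9 genes in the 12 libraries, by assay and treatment, with replicates 1, 2 and 3 as circle, square and triangle and bars for the mean and SD. TCF7L2, TCF7L1 and DVL3 have all trametinib footprint libraries above all DMSO footprint libraries, and DVL2 is separated this way in input.

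Counted over the 9 genes with a row, all of which passed the filters on low counts, 3 were higher and 0 were lower in trametinib footprints. Over all 11941 genes tested in footprints, 24.1% were called higher and 24.5% lower. In input, 0 of the 9 genes were called by edgeR, and 0 had an unadjusted p under 0.05 or were called by the DESeq2 Wald test. Over all 10663 genes tested in input, 32.1% were called in either direction and 42.9% had such an unadjusted p. In ribosome density, 0 of the 9 were called by the DESeq2 likelihood ratio test or by edgeR and 1 had an unadjusted p under 0.05, against 1.73% of genes called and 7.88% with such a p. The median changes of the 9 genes were -0.13 in input, 0.12 in footprints and 0.26 in density, where the medians of all genes were 0.00 in each.

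Groups did not overlap for 1 of the 9 genes in input and for 3 in footprints, against 46.6% and 59.0% of all genes. The density dishes did not overlap for 4 of the 9 (DVL3, WLS and NKD1 above, DVL2 below), against 17.3% of all genes. The NKD1 input libraries behind this held only between 12 and 17 counts. These counts are a description, and the difference between the 9 genes and all genes was not tested.

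**Figure D4:**
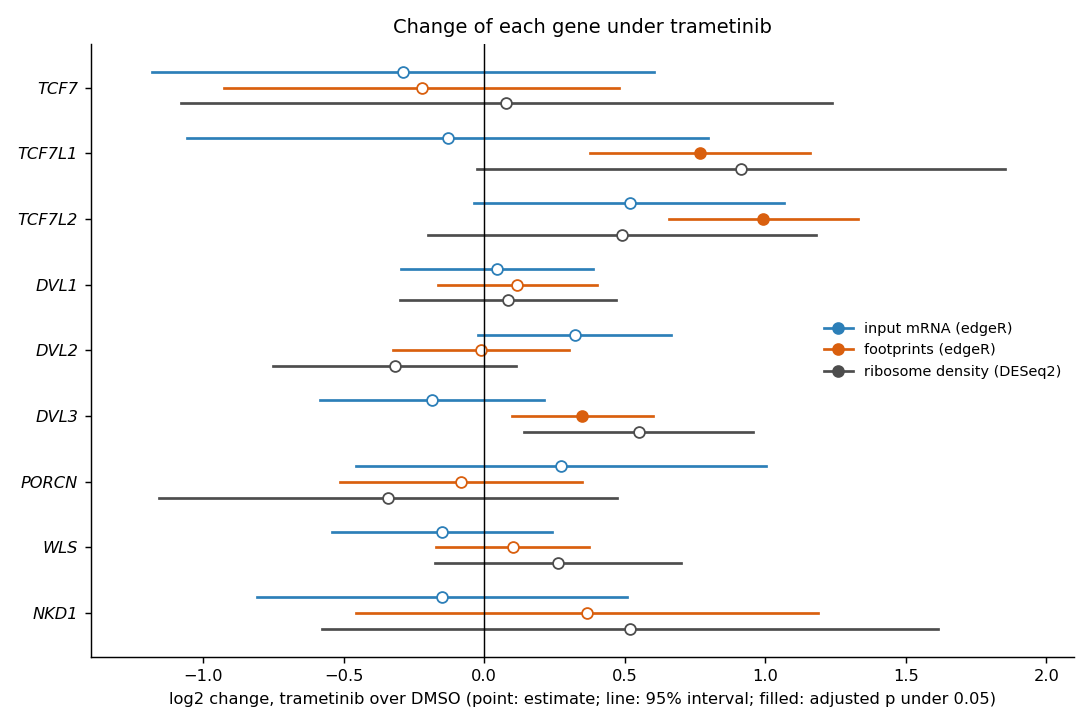
Log2 change of trametinib over DMSO (x axis) of the 9 genes in input mRNA, footprints and ribosome density, with the estimate as a point, its 95% interval as a line and filled points for an adjusted p under 0.05. Only the footprint estimates of TCF7L2 (0.99), TCF7L1 (0.77) and DVL3 (0.35) are filled, and the footprint signs of DVL2 and PORCN turn with library totals as scaling.

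The genes whose log2 normalized counts, centred within each assay, moved most like those of the 3 called genes were found among 10623 genes over the 12 libraries. For TCF7L2 they were GRID2IP (r = 0.968), PEPD (r = 0.967) and IMPA2 (r = 0.966). For TCF7L1 they were OTX1 (r = 0.891), FHL1 (r = 0.889) and ANTXR1 (r = 0.878), and for DVL3 KDELR2 (r = 0.865), CDC25B (r = 0.860) and WASF2 (r = 0.851). These correlations share the treatment contrast and are given as a description.

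The rest of the Wnt pathway was described by 87 further genes in 7 lists. In footprints 56 of them could be tested, of which 31 were higher and 1 was lower, with a median change of 0.45, where 24.1% of all genes were higher and 24.5% lower. In input 12 of 46 were higher and 1 was lower, with 20 at an unadjusted p under 0.05 and a median of 0.26, where 15.4% of all genes were higher, 16.8% were lower and 42.9% had such a p. In ribosome density 1 of 46, CSNK1A1, was higher and 0 were lower, with 1.73% of all genes called. Among the higher footprint calls, WNT4, WNT9A, AXIN2 and PYGO1 reached the filter on low counts only with the trametinib libraries. Among the higher input calls, WNT7B and AXIN2 did so. Such genes could be tested only because they were high in trametinib, and the counts and medians above include them. The differences from all genes were not tested. Leaving out trametinib replicate 1 lowered the 31 footprint calls to 18. Leaving out trametinib replicates 1, 2 or 3 lowered the 12 input calls to 7, 6 or 7, and leaving out DMSO replicate 2 gave 8. The single lower call in footprints became 5 without DMSO replicate 1 and 0 without DMSO replicate 2, DMSO replicate 3, trametinib replicate 1 or trametinib replicate 3.

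Of the 19 Wnt ligands, 10 were tested in footprints, of which 6 were higher, with WNT9A (1.48, SE 0.27, edgeR adjusted p = 0.00180) and WNT7B (1.32, SE 0.23, adjusted p = 0.00162) changed most, and WNT10B was lower (-0.71, SE 0.25, adjusted p = 0.0434). The named ligands were weakly occupied, with WNT9A at 6.50 ± 1.08 and WNT7B at 13.4 ± 1.98 normalized footprint counts in DMSO (SD, n = 3). WNT9A and WNT4 reached the filter of 10 counts in 3 libraries only with the trametinib libraries. WNT16, which was not called (-0.25, SE 0.13, adjusted p = 0.142), was at 694 ± 90.8. The share of all genes called higher in footprints was 24.1%, and 24.5% were called lower. PORCN attaches a lipid to Wnt ligands and WLS carries them, and neither gene changed in a way that passed the test. Only 2 ligands could be tested in input, where 15.4% of all genes were higher. WNT7B, 1 of them, was higher (1.60, SE 0.35, edgeR adjusted p = 0.00377) and reached the filter only with the trametinib libraries.

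Of the 16 receptors and co-receptors, 13 were tested and 10 were higher in footprints, none lower. Over all genes tested in footprints, 24.1% were higher and 24.5% lower. The Frizzled receptor FZD2 was 0.99 higher (SE 0.16, edgeR adjusted p = 0.000955) and the co-receptor LRP5 0.87 (SE 0.11, adjusted p = 0.000212). In input 6 of 13 receptors were higher, against 15.4% of all genes, among them FZD2 by 1.21 (SE 0.22, adjusted p = 0.00119). The receptor turnover list had 1 called gene of 3 tested, LGR4, an R-spondin receptor, which was 1.64 higher in footprints (SE 0.22, adjusted p = 0.000367). Both tested secreted antagonists were higher, NOTUM, an enzyme that removes the lipid that PORCN adds, by 1.35 (SE 0.24, adjusted p = 0.00182) and DKK1, a blocker of LRP5 and LRP6, by 0.44 (SE 0.12, adjusted p = 0.0148).

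Among regulators of Dishevelled, 3 of 5 tested genes were higher in footprints and 0 of 4 in input, against 24.1% and 15.4% of all genes. In input 2 of the 4 had an unadjusted p under 0.05 (edgeR), against 42.9% of all genes. KLHL12, a ubiquitin ligase adaptor for Dishevelled, was 0.57 higher in footprints (SE 0.11, edgeR adjusted p = 0.00243) and INVS, which directs Dishevelled between Wnt branches, 0.46 (SE 0.13, adjusted p = 0.0154). In the destruction complex, 4 of 11 genes were higher in footprints, against 24.1% of all genes. AXIN2, a scaffold induced by Wnt signaling, was highest (2.17, SE 0.51, adjusted p = 0.00736) and reached the filter only with the trametinib libraries. CSNK1A1, the kinase that primes beta-catenin, had changes of 0.47 in footprints (SE 0.14, adjusted p = 0.0211), of -0.85 in input (SE 0.24, adjusted p = 0.0146) and of 1.34 in density (SE 0.33, DESeq2 adjusted p = 0.00447). Its input call was the 1 lower call among the pathway genes and became 0 without trametinib replicate 2 or 3.

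The nuclear partners of the TCF/LEF factors had 5 of 12 genes higher in footprints and 2 of 11 in input, none lower, against 24.1% and 15.4% of all genes. PYGO1, 1 of the 5, reached the filter only with the trametinib libraries. TLE2 and TLE1, co-repressors that bind TCF/LEF factors, were 1.12 (SE 0.22, edgeR adjusted p = 0.00276) and 1.04 (SE 0.18, adjusted p = 0.00143) higher in footprints. Genes that TCF/LEF factors are known to regulate moved in both directions. Of 12 tested in footprints, 7 were higher and 4 were lower, against 24.1% and 24.5% of all genes. In input 5 were higher and 4 lower of 11, against 15.4% and 16.8%. Of the 7 genes higher in footprints, AXIN2, SP5 and TNFRSF19 reached the filter only with the trametinib libraries, and in DMSO SP5 had at most 6 counts. AXIN2 reached it only with the trametinib libraries in input too. In footprints AXIN2 and TNFRSF19 (1.60, SE 0.44, adjusted p = 0.0148) rose most. SOX9, a transcription factor of the crypt (-3.06, SE 0.14, adjusted p = 6.94e-07), and CCND1, a cyclin that ERK signaling is also known to induce (-2.33, SE 0.12, adjusted p = 1.10e-06), fell most. In density 0 of 11 target genes were called by DESeq2, with 0 at an unadjusted p under 0.05, against 1.73% and 7.88% of all genes.

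**Figure D5:**
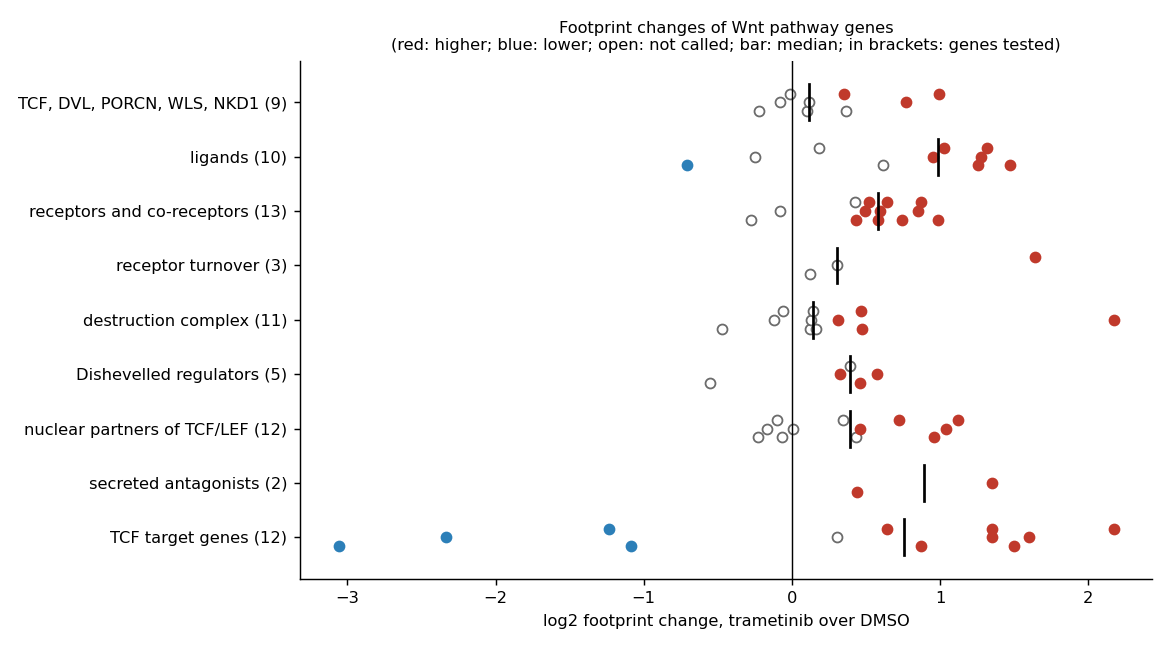
Log2 footprint change of trametinib over DMSO (x axis) for the 9 genes described here and for the tested genes of each Wnt list (rows), with red for genes called higher, blue for lower, open circles for genes not called and a bar for the median. Of the 13 receptors tested 10 are red, the TCF target genes split into 7 red and 4 blue, and 6 of the 9 genes in the top row are open. Over all genes tested in footprints, 24.1% were called higher and 24.5% lower.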

How the data were processed

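The authors profiled ribosomes in HCT116 cells. They removed adapters, discarded reads aligning to rRNA and tRNA with Bowtie 1.2.2, mapped the rest to the basic set of Gencode V38 and counted reads of 25 to 35 nt inside the reading frames of a single gene symbol. The deposited table holds these raw counts for 12 libraries and, as a normalized signal, the counts divided by the authors' DESeq2 size factors, which recomputed size factors equalled in 12 of 12 libraries (tolerance 1e-06). It also holds fold changes and adjusted p-values of the authors' own comparison (DESeq2 1.46.0), which were not used. Groups and replicate numbers came from the sample labels, and 0 per-library columns stayed unused. How the deposited reads map to a strand is not given in the sources used here.

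Input and footprints were each tested within their 6 libraries by the edgeR 4.0.16 quasi-likelihood test with TMM normalization, for genes reaching 10 counts in 3 or more libraries. Ribosome density was tested over all 12 libraries as the interaction of assay and treatment by the likelihood ratio test of DESeq2 1.42.0, for genes reaching 10 counts in 3 or more of the input libraries, without independent filtering (R 4.3.3). Benjamini-Hochberg adjustment ran over all genes tested, and an adjusted p under 0.05 was called. The edgeR SE was derived from the coefficient and its F statistic, and intervals are 95%. Density per dish used a pseudocount of 0.5. On simulated counts, 72, 77 and 24 of 100 genes with a 2-fold change were recovered in input, footprints and density (10646, 11959 and 10539 genes), and 100, 100 and 97 with a 4-fold change. The changed genes were drawn only from those above a set mean count, and all genes were given the same spread. In input TCF7, TCF7L1, PORCN and NKD1 lay below that mean, so the input rates do not describe these genes. NKD1 also lay below it in footprints and over all 12 libraries, so none of the rates describes NKD1. P-values measure the spread between these samples only.

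Same-numbered libraries of the 2 treatments deviated together in footprints, with r of 0.117, 0.133 and 0.294 over 7669 genes, so that the numbers met the rule for pairs there (each r above 0.1). In input r was 0.068, 0.0484 and 0.334, which did not meet it. The printed fits are without a replicate block, and the blocked fits are alternatives. Input and footprints with the same number and treatment had r of 0.816, 0.181 and 0.343 for the DMSO dishes and of 0.141, 0.0803 and -0.122 for the trametinib dishes. They were treated as 1 dish, as the study's methods describe input RNA as set aside from the same lysate.

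The genes and the lists of pathway genes were chosen with earlier results of these data known. All 10 symbols are named. Of each list, up to 2 called genes with the largest footprint change in each direction are named, as are the 3 genes most like each called gene. WNT16, WNT4, PYGO1, SP5, COL1A1, SYP and the input values of WNT7B and FZD2 were added after their values were seen. Alternatives were DESeq2 or edgeR in place of each other, limma-trend (limma 3.58.1), other scalings and filters, replicate blocks and leaving out each library.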

Additional observations from a re-analysis of the deposited data

How the results depend on the processing

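The footprint calls of TCF7L2, TCF7L1 and DVL3 were kept under all 7 alternatives with all libraries, with a replicate block included, where DVL3 had an adjusted p of 0.0430. The replicate block raised the 9 genes' calls in input from 0 to 1 (TCF7L2, 0.53, adjusted p = 0.0471) and gave 20 genes higher in density over all libraries, and DVL2 at 0.00 in footprints. A block for each dish changed no call of the 9 genes. With library totals the median gene sat at 0.19 in footprints and 0.18 in density. They gave 4034 genes higher and 2074 lower in footprints, where the main counts were 2876 and 2926, and 142 higher and 112 lower in density, where they were 35 and 150. They turned DVL2 to 0.17 and PORCN to 0.10 in footprints, called 1 of the 9 genes higher in density (DVL3, 0.72) and called 3 pathway genes higher in density. The single pathway gene lower in footprints became 0 with library totals, with the DESeq2 Wald test and with all 12 libraries in 1 model, where DVL2 was at 0.03. In density edgeR gave 10 genes higher and 87 lower and limma-trend 8 and 86. The causes were not tested.

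Leaving out single libraries gave 0 to 1 of the 9 genes higher in input, 2 to 3 higher and 0 to 1 lower in footprints, and 0 in density. Pathway genes called higher numbered 6 to 14 in input and 18 to 32 in footprints, and those called lower 0 to 1 and 0 to 5. Of all genes, 1003 to 1719 were higher in input and 7 to 38 in density. Signs turned for DVL1 (-0.04 to 0.14), TCF7 (-0.63 to 0.26) and TCF7L1 (-0.67 to 0.17) in input, for PORCN (-0.20 to 0.03), NKD1 (-0.03 to 0.68), DVL2 (-0.15 to 0.08) and TCF7 (-0.54 to 0.14) in footprints, and for DVL1 (-0.02 to 0.16) and TCF7 (-0.49 to 0.43) in density. The input libraries of TCF7, TCF7L1, PORCN and NKD1 held between 5 and 44 counts. The part of this low depth in the spread of their estimates was not tested.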
